A study of Mus musculus with 8 samples.

Results

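The complement genes followed here were 8 genes that encode components, receptors and membrane regulators of complement in the mouse: C3, Cfp, C3ar1, C5ar1, C5ar2, Cd55, Cd59a and Cr1l. They were chosen by symbol, through the Ensembl identifiers of the count tables, and are 8 of the 55414 genes listed there. RNA was sequenced from sorted spleen neutrophils of 8 FVB mice aged 10 weeks and housed under specific and opportunistic pathogen-free (SOPF) conditions, to ask how the neutrophil transcriptome differs without Cxcr2, a chemokine receptor of neutrophils. The 4 WT and the 4 Cxcr2-/- libraries came from 1 mouse each. The knockout is constitutive and had been backcrossed to FVB, so every cell of a Cxcr2-/- mouse lacks the receptor, not neutrophils alone. Spleen cells positive for CD11b were enriched and then sorted as CD45+ CD11b+ Ly6G+ F4/80- cells. CD11b is itself a chain of complement receptor 3, encoded by Itgam, so cells were selected on 1 complement receptor in both groups.

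Complement is a cascade of plasma proteins that is triggered through the classical, lectin or alternative pathway, and every route converges on the cleavage of C3. Its products coat targets for phagocytosis, build the membrane attack complex and release the small peptides C3a and C5a, which act on G-protein coupled receptors of leukocytes. Neutrophils respond to C5a by chemotaxis, store properdin in granules that they release on activation, and protect their own surface from convertases with membrane regulators. FVB/N mice are known for a loss-of-function allele of Hc, the gene of C5, from which C5a is cut. The substrain was not given in the labels, and C5a itself was not measured.

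Most of the 8 genes differed in mRNA level between the genotypes, and they did so in both directions. C3, Cfp and Cd55 were higher in Cxcr2-/- spleen neutrophils, and C5ar2, C3ar1 and Cr1l were lower. C5ar1, the main C5a receptor, did not pass the test, whereas the mRNA of C5ar2, its neighbour on chromosome 7, was lower in each Cxcr2-/- library than in any WT library. Of the 7 genes tested, 6 had an adjusted p under 0.05 in edgeR's quasi-likelihood test, against 44.7% of the 16778 genes tested. The calls were 3 higher and 3 lower, where the background was 23.7% of genes higher and 21.0% lower. With the added requirement of a 1.5-fold change, 4 of the 7 were called, against 31.3% of all genes. Values of the 4 WT and 4 Cxcr2-/- libraries did not overlap for 6 of the 7, against 41.6% of all genes. The median log2 fold change (Cxcr2-/- over WT) of the 7 was -0.04, and that of all genes was 0.01. The median absolute log2 fold change was 0.63 for the 7 and 0.46 for all genes.

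Libraries held 34220182 to 46233555 counts assigned to genes in WT and 37549648 to 43789253 in Cxcr2-/-. Cxcr2 itself stood at 1956 ± 221 CPM (counts per 1000000 of the library's gene counts, after TMM scaling of the library sizes by factors of 0.904 to 1.08; mean ± SD, n = 4) in WT and 17.1 ± 3.46 CPM in Cxcr2-/-. The 11 neutrophil markers checked were all above 1 CPM on average, and their summed level was 42443 to 59268 CPM in WT and 96127 to 123012 CPM in Cxcr2-/-. Granule genes of immature neutrophils rose for 9 of 9, against 23.7% of all genes, from sums of 21894 to 26675 CPM to sums of 51364 to 73771 CPM, and their part in the differences described here was not tested. Macrophage and monocyte markers were present in all libraries, with summed levels of 468 to 565 CPM in WT and 218 to 365 CPM in Cxcr2-/-, of which Csf1r made up 403 to 499 and 190 to 269 CPM. B cell markers summed to 78.2 to 171 CPM in WT and to 32.9 to 76.1 CPM in Cxcr2-/-. No marker of these lists was at 0 in every library. Libraries of Cxcr2-/- replicates 3 and 4 stood apart from replicates 1 and 2 in some markers of early granulocytes and monocytes. Elane stood at 55.5 and 93.2 against 12.0 and 14.5 CPM, and Ccr2 at 34.4 and 45.7 against 7.48 and 8.85 CPM. Mpo, Prtn3 and Ctsg were also higher in replicates 3 and 4, while Ltf and Camp were lower. The summed granule genes of immature neutrophils were lower there too, at 60010 and 51364 against 73771 and 62108 CPM. In such bulk samples, fewer cells of a type and less RNA per cell cannot be told apart, and p-values measure the spread between these mice.

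The reference sequences before the start sites of C3, C5ar1 and C5ar2 are shown because these genes hold the largest rise among the 8 and the pair of receptors that diverged. Each is the RefSeq promoter window of 300 bases on GRCm38.p6, from 250 bases before the start to 50 bases of transcript, read 5′ to 3′ along the minus strand at chr17:57228087-57228386 for C3, chr7:16259289-16259588 for C5ar1 and chr7:16244105-16244404 for the first listed start of C5ar2. The genome is that of C57BL/6J and the mice were FVB, so these are not the sequences of the animals studied. Capitals mark matches, on either strand, to the TATA box core TATAAA, to TTNCNNAA, a core bound by C/EBP factors of myeloid cells, or to AGGAAG, a core bound by ETS factors such as PU.1.
C3: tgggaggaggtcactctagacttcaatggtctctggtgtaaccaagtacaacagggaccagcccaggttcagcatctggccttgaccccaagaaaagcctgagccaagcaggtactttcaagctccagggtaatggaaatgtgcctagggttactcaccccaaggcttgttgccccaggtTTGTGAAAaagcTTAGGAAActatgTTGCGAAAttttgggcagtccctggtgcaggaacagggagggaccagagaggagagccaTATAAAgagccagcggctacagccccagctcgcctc
C5ar1: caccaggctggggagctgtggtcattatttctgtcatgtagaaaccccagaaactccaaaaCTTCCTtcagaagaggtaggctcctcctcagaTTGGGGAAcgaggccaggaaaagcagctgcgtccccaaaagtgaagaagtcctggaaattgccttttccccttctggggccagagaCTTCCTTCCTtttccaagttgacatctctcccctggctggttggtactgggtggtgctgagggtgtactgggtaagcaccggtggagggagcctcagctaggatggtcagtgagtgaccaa
C5ar2: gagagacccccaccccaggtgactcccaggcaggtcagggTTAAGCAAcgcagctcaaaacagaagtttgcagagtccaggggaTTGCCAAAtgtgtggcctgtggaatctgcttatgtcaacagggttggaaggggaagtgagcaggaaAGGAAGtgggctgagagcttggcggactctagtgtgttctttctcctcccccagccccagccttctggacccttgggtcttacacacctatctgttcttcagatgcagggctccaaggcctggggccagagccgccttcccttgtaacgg

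TTNCNNAA was found in the windows of 3 of the 8 genes, which are the 3 printed here, and in 40.7% of the 32851 promoter windows of the mouse. C3 held it at 3 places between -70 and -38, of which TTGCGAAA matched on both strands, and also carried TATAAA at 14 to 19 (positions from 0 at the first transcribed base). AGGAAG was found in C5ar1 at 3 places, 2 of them overlapping, in C5ar2 at 1 place of the window printed and in C3ar1 at 1 place, and in 35.4% of all windows. RefSeq lists a second start of C5ar2, and its window, not printed here, held 1 match each to AGGAAG and TTNCNNAA. The TGANTCA motif of AP-1 was found in C3ar1 alone of the 8, and in 7.81% of all windows. TATAAA was found in C3 and C3ar1, and in 13.6% of all windows. A match describes letters of a reference and shows no binding. The windows of C5ar1 and C5ar2 both held TTNCNNAA and AGGAAG, in differing number and place. Any part of such matches in the levels of these genes was not tested.

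C3, the central component that all pathways cleave, had the highest CPM of the 8 genes in every library, a scale that does not allow for gene length. The gene (ENSMUSG00000024164) lies on the minus strand of chromosome 17 at 57203970 to 57228136. The 4 WT libraries held 1238, 1132, 964 and 1181 CPM of C3, and the 4 Cxcr2-/- libraries held 2549, 2117, 1707 and 1706 CPM. Every Cxcr2-/- library was above every WT library, and replicates 3 and 4, which stood apart in other genes, were the lower ones. Means were 1128 ± 118 and 2020 ± 402 CPM (SD, n = 4), a log2 fold change of 0.84 ± 0.15 (SE) with an adjusted p of 0.000513, or a fold of 1.79 with a 95% interval of 1.44 to 2.23. The spread between mice was wider in Cxcr2-/-, with a coefficient of variation of 19.9% against 10.5%. Set per kilobase of exon, C3 stood at 219 CPM per kb in WT and 393 CPM per kb in Cxcr2-/-, which moved it from rank 181 to rank 76 among 16539 genes ordered on that scale.

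Cfp encodes properdin, the positive regulator that stabilises the C3 convertase of the alternative pathway. The gene (ENSMUSG00000001128) lies on chromosome X at 20925454 to 20931555. Its level was 183, 164, 163 and 160 CPM in WT, and 255, 214, 224 and 199 CPM in Cxcr2-/-. The groups did not overlap, with Cxcr2-/- replicate 4 lowest of its group and WT replicate 1 highest of its own. The mean rose from 168 ± 10.6 to 223 ± 23.9 CPM, a log2 fold change of 0.41 ± 0.10 (SE; adjusted p = 0.00461), and the fold of 1.33 had a 95% interval of 1.15 to 1.54. On the scale per length its level was 96.5 CPM per kb in WT and 128 in Cxcr2-/-.

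**Figure D1:**
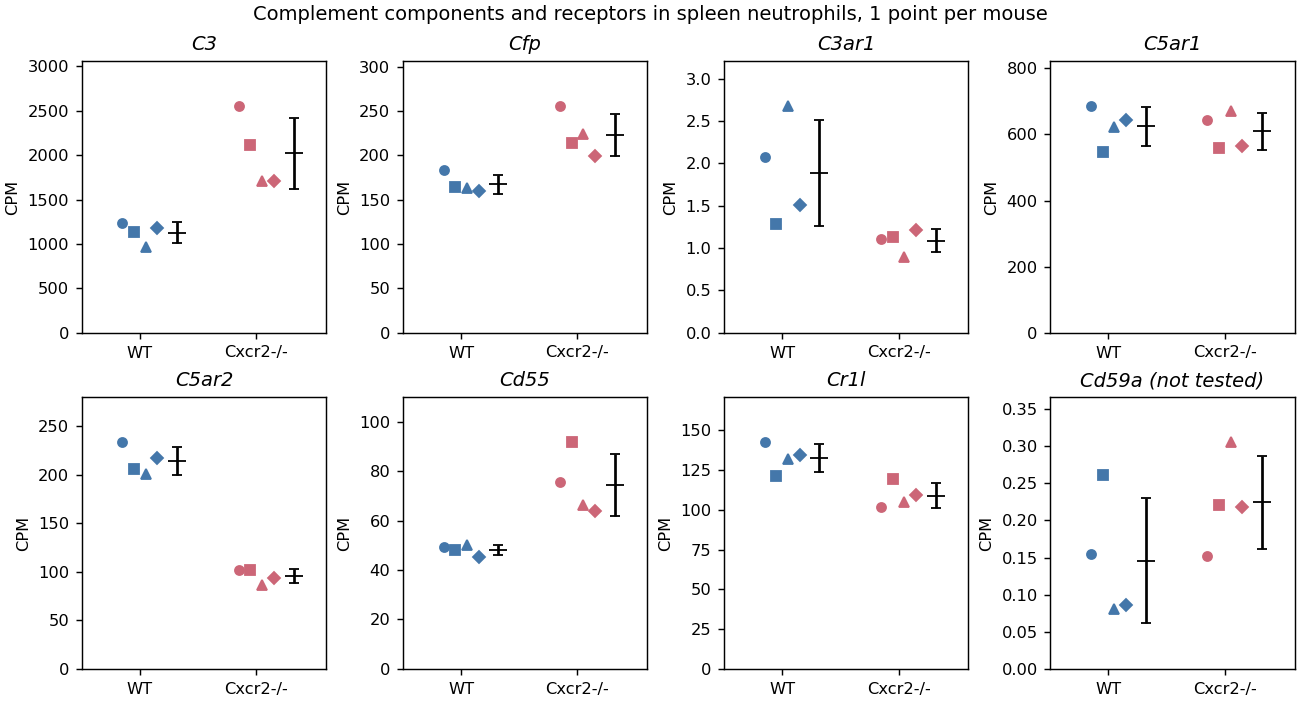
Level of each of the 8 complement genes in CPM (vertical axes, each from 0), with 1 point per mouse, a different marker shape for replicates 1 to 4, and the mean with SD beside the points. C3, Cfp and Cd55 were higher in all Cxcr2-/- libraries than in any WT library, C5ar2, C3ar1 and Cr1l were lower, C5ar1 overlapped, and Cd59a was too low to test.

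Among the receptors of complement peptides, C5ar2 and C5ar1 gave unlike results. C5ar2 encodes the second C5a receptor, which binds C5a without coupling to G proteins. Its gene (ENSMUSG00000074361) lies on the minus strand of chromosome 7 at 16234585 to 16244154. WT libraries held 233, 206, 200.4 and 217 CPM of C5ar2, and Cxcr2-/- libraries held 102, 101, 86.2 and 93.2 CPM. All 4 Cxcr2-/- values lay close together and far under the lowest WT value. Means were 214 ± 14.5 and 95.7 ± 7.48 CPM, and the log2 fold change was -1.16 ± 0.09 (SE; adjusted p = 1.32e-06), so that WT libraries were 2.24-fold above Cxcr2-/- libraries. In the annotation used here for coordinates, a second gene, Gm26473, shares 127 exon bases with C5ar2 on the same strand. The release used for counting was not given, so how reads there were counted is not known.

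C5ar1 encodes the receptor through which C5a drives neutrophil chemotaxis and activation. Its gene (ENSMUSG00000049130) lies on the same strand at 16246743 to 16259540, with 2588 bases between the 2 genes. Libraries held 685, 547, 623 and 644 CPM of C5ar1 in WT, and 645, 558, 670 and 565 CPM in Cxcr2-/-. The 2 groups overlapped over nearly their whole range. Means were 625 ± 58.0 and 609 ± 56.6 CPM, and the log2 fold change was -0.04 ± 0.11 (SE; adjusted p = 0.812). The 95% interval of the fold, 0.830 to 1.15, excludes a fall of the size seen for C5ar2. C5ar1 ranked 146 of 16539 per kilobase in both genotypes, while C5ar2 moved from 677 to 1546.

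The ratio of C5ar1 to C5ar2 counts within each library, which is free of any scaling between libraries, describes how these neighbouring receptors diverged. It was chosen after the levels of both genes were seen and is given with no test. The ratio was 2.94, 2.66, 3.11 and 2.97 in WT, and 6.33, 5.50, 7.77 and 6.06 in Cxcr2-/-. The lowest Cxcr2-/- ratio was well above the highest WT ratio. Means were 2.92 ± 0.189 and 6.41 ± 0.966, which differed by 1.13 on the log2 scale.

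**Figure D2:**
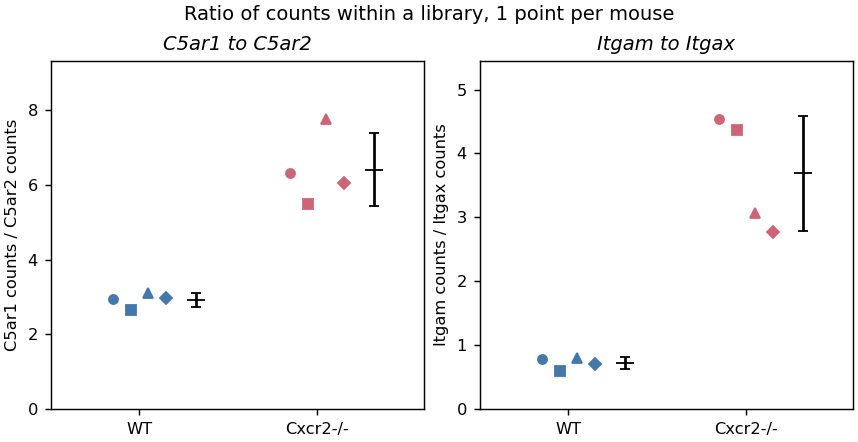
Ratio of counts within a library (vertical axes, no unit, from 0) for C5ar1 over C5ar2 and for Itgam over Itgax, with 1 point per mouse and the mean with SD. The C5ar1 to C5ar2 ratio averaged 2.92 in WT and 6.41 in Cxcr2-/-, and the Itgam to Itgax ratio averaged 0.721 and 3.69, with no overlap of the groups in either.

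C3ar1 encodes the receptor of C3a and was the scarcest of the 7 genes tested. The gene (ENSMUSG00000040552) lies on chromosome 6 at 122847138 to 122856161. It stood at 2.08, 1.29, 2.67 and 1.504 CPM in WT, and at 1.11, 1.13, 0.890 and 1.22 CPM in Cxcr2-/-. The groups did not overlap, but the highest Cxcr2-/- library and the lowest WT library nearly met. The mean was 1.89 ± 0.622 CPM in WT and 1.09 ± 0.139 in Cxcr2-/-, with a log2 fold change of -0.79 ± 0.27 (SE; adjusted p = 0.0321). This call was lost without any of 5 single libraries, with an adjusted p of 0.0720 without WT replicate 1, 0.114 without WT replicate 3, and 0.0563, 0.0566 and 0.0799 without Cxcr2-/- replicates 1, 2 and 3. Macrophages and monocytes also express C3ar1. The summed markers of these cells were 468 to 565 CPM in WT and 218 to 365 CPM in Cxcr2-/-. Most of each sum was Csf1r, at 403 to 499 CPM in WT and 190 to 269 CPM in Cxcr2-/-. Of the 14 markers, 2 were lower, 1 (Ccr2) was higher and 11 did not pass, against 21.0% of all genes lower and 23.7% higher. The part of these cells in the C3ar1 difference was not tested.

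The membrane regulators did not move as a group. Cd55 encodes decay accelerating factor, which dissociates C3 convertases on the cell that carries it. The gene (ENSMUSG00000026399) lies on chromosome 1 at 130439027 to 130462744. Cd55 stood at 49.1, 48.0, 50.03 and 45.3 CPM in WT, and at 75.6, 91.6, 66.3 and 63.8 CPM in Cxcr2-/-. The WT libraries were within a few CPM of each other, and all Cxcr2-/- libraries were above them with a wider spread (coefficient of variation 16.9% against 4.23%). The mean rose from 48.1 ± 2.04 to 74.3 ± 12.6 CPM, a log2 fold change of 0.63 ± 0.11 (SE; adjusted p = 0.000654) and a fold of 1.54 with a 95% interval of 1.30 to 1.83. An antisense gene, Gm16083, shares 102 exon bases with Cd55 on the opposite strand, and whether the counting used strand was not stated. Reads shared with Cd55b, its near copy, may also have been left out or split.

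Cr1l encodes Crry, the rodent membrane regulator that acts on C3 convertases much as CD55 and CD46 do. The gene (ENSMUSG00000016481) lies on chromosome 1 at 195097382 to 195131586. Libraries held 142, 121, 132 and 134 CPM of Cr1l in WT, and 102, 119, 105 and 109 CPM in Cxcr2-/-. The groups did not overlap, but WT replicate 2 and Cxcr2-/- replicate 2 nearly met. The mean fell from 132 ± 8.62 to 109 ± 7.58 CPM, a log2 fold change of -0.28 ± 0.09 (SE; adjusted p = 0.0207). The call was lost without WT replicate 1 (adjusted p = 0.0613), WT replicate 4 (0.0568), Cxcr2-/- replicate 1 (0.0519) or Cxcr2-/- replicate 3 (0.0610), each from edgeR's quasi-likelihood test. Cd55 and Cr1l share chromosome 1 with Cxcr2, at 56.3 and 121 Mb from it.

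Cd59a encodes a membrane protein that blocks assembly of the membrane attack complex. The gene (ENSMUSG00000032679) lies on chromosome 2 at 104095801 to 104115354. It had 7, 13, 3 and 3 counts in the WT libraries and 6, 8, 12 and 9 counts in the Cxcr2-/- libraries, which is 0.0802 to 0.261 CPM and 0.152 to 0.305 CPM. With 61 counts over 8 libraries it did not pass the filter on low counts and was not tested, and a difference was not detectable at this depth. Reads shared with its paralog Cd59b may have been left out or split.

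Per kilobase of exon, the order of the 8 genes differed between WT and Cxcr2-/- in 2 pairs of neighbours. C5ar1 (243 CPM per kb) and C3 (219) led in WT, followed by Cfp (96.5), C5ar2 (60.1), Cr1l (12.8), Cd55 (9.91), C3ar1 (0.438) and Cd59a (0.0804). The C5ar1 and C3 levels in WT overlapped between libraries, and no other neighbours in either order did. In Cxcr2-/-, C3 (393) led C5ar1 (237), and Cd55 (15.3) stood above Cr1l (10.5), so that both pairs had changed places. These orders are descriptions on a scale that depends on the exon length in the annotation used.

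**Figure D3:**
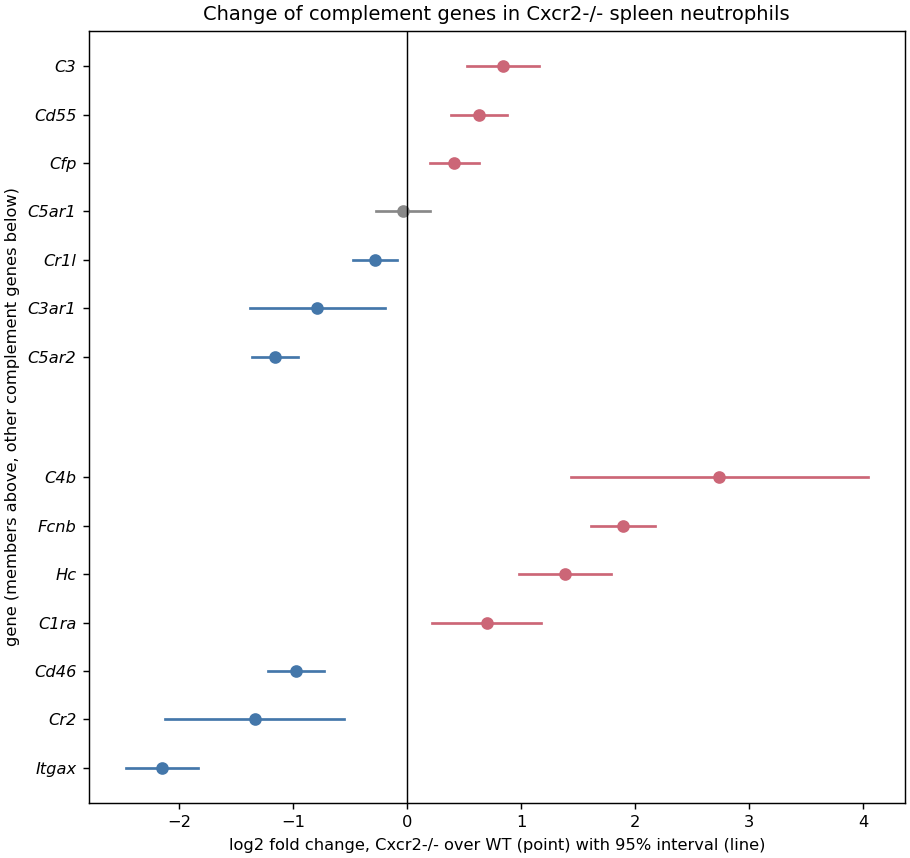
Log2 fold change of Cxcr2-/- over WT (horizontal axis) with its 95% interval for the 7 tested members (upper block) and 7 other complement genes that passed the test (lower block), red for higher, blue for lower and grey for not passed. C5ar2 at -1.16 lay furthest from 0 among the members, and C4b at 2.74 and Itgax at -2.15 among the others.

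Genes whose pattern over the 8 libraries was most like each called member were found by the smallest root mean square difference of centred log2(CPM + 1) values, over 8691 genes. Nearest to C3 were Hk1 (0.0391), Flna (0.0420) and E2f2 (0.0601). Cfp was closest to Dhx58 (0.0373), Coro2a (0.0396) and Cd81 (0.0456). For C5ar2 they were Retreg1 (0.0625), Hgsnat (0.0743) and Peli1 (0.0796). Cd55 was closest to Hcfc2 (0.0523), Nqo2 (0.0524) and Tmem209 (0.0586), and Cr1l to Hbp1 (0.0402), Tm9sf2 (0.0446) and Oard1 (0.0447). C3ar1 had no equally close partner among the genes searched, with G630030J09Rik nearest at 0.107, before Nat9 (0.127) and Gm45345 (0.130). The search took in only genes with a mean of at least 5 CPM, so genes as scarce as C3ar1 were left out. The 1 CPM added before the logarithm also shrinks the differences of so scarce a gene more than those of abundant ones.

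The rest of the complement system was covered by 50 further genes, of which 24 were tested, 5 were higher, 3 were lower and 16 did not pass. The 8 calls among 24 genes were a smaller share than the 44.7% called among all genes tested, and the 2 shares were not compared by a test. Low counts limit what could be called among these genes, as for Masp2 at 0.338 CPM and C6 at 0.497 CPM in WT. The calls did not follow level alone, as C4b at 0.623 CPM in WT was called. Itgam at 417 CPM and Itgb2 at 1824 CPM in WT did not pass. Of the 5 higher genes, 4 are described here. The other 26 were filtered as low, with 10 of them at 0 counts in all libraries, including C7, C8a, C8b and C9 of the membrane attack complex. The median log2 fold change of the 24 was -0.17. Fcnb, the ficolin of myeloid cells that starts the lectin pathway, had the strongest support among the rises. It stood at 29.3, 22.5, 28.6 and 23.2 CPM in WT and at 87.0, 81.2, 104 and 113 CPM in Cxcr2-/-. The groups were far apart, with means of 25.9 ± 3.55 and 96.3 ± 14.8 CPM and a log2 fold change of 1.89 ± 0.13 (SE; adjusted p = 4.28e-07). Hc, the gene of C5, was low but rose from 2.11 ± 0.357 to 5.51 ± 0.724 CPM (log2 fold change 1.39, adjusted p = 7.20e-05). C4b, the classical pathway component C4, rose from 0.623 ± 0.692 to 4.07 ± 2.46 CPM (log2 fold change 2.74, adjusted p = 0.00259), with WT replicate 3 at 1.66 and Cxcr2-/- replicate 1 at 7.63 CPM. Without WT replicate 3 its log2 fold change was 3.86. C4a, a near-identical copy that may share its reads, stood at 1.13 and 0.856 CPM and did not pass (adjusted p = 0.228). C1ra, the C1r protease of the classical pathway, rose from 2.12 to 3.42 CPM (log2 fold change 0.70, adjusted p = 0.0214), a call lost without WT replicate 2 (adjusted p = 0.0715) or Cxcr2-/- replicate 3 (0.0798).

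The integrin receptors of C3 fragments also diverged. Itgax, which with Itgb2 forms complement receptor 4, stood at 555, 691, 477 and 623 CPM in WT and at 107, 124, 141 and 157 CPM in Cxcr2-/-. The WT libraries were all above the Cxcr2-/- libraries, by 4.43-fold in the fit (log2 fold change -2.15 ± 0.15, SE; adjusted p = 3.88e-07). Itgam, the chain that pairs with Itgb2 in complement receptor 3 and on which the cells were sorted, stood at 417 ± 27.7 and 474 ± 51.7 CPM and did not pass (adjusted p = 0.173), nor did Itgb2 (adjusted p = 0.128). Within libraries, the Itgam to Itgax ratio was 0.783, 0.601, 0.795 and 0.706 in WT and 4.54, 4.37, 3.07 and 2.77 in Cxcr2-/-. This ratio, also chosen after the levels were seen and given with no test, differed by 2.33 on the log2 scale. Itgax is also expressed by dendritic cells and macrophages. Dendritic cell markers summed to 11.2 to 35.5 CPM in WT and 6.61 to 11.2 CPM in Cxcr2-/-, and their part was not tested.

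Cd46 and Cr2 flank Cr1l on chromosome 1, at 5.13 and 5.22 kb, and both were lower in Cxcr2-/-. Cd46 encodes membrane cofactor protein and stood at 31.6, 31.5, 33.3 and 36.6 CPM in WT and at 15.4, 15.7, 15.9 and 20.5 CPM in Cxcr2-/-. Its libraries did not overlap, and the log2 fold change was -0.98 ± 0.11 (SE; adjusted p = 2.40e-05). Cr2, which in the mouse encodes complement receptors 1 and 2 of B cells, stood at 24.3, 13.4, 14.3 and 11.6 CPM in WT and at 3.89, 2.93, 6.89 and 11.5 CPM in Cxcr2-/- (log2 fold change -1.34, adjusted p = 0.00934). WT replicate 4 and Cxcr2-/- replicate 4 nearly met for Cr2, and its log2 fold change was -2.24 without Cxcr2-/- replicates 3 and 4. Of the 7 other B cell markers, 6 were lower as well, against 21.0% of all genes, and their part was not tested. Cd46, Cr1l and Cr2 were set side by side here with their calls already known. That all 3 were called lower, where 21.0% of all genes were, is a description and was not tested. Their log2 fold changes were -0.98 for Cd46, -0.28 for Cr1l and -1.34 for Cr2, while Cd55, elsewhere on the chromosome, rose by 0.63. Of these calls, that of Cr1l was lost in 5 of the 17 alternative fits.

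Several complement genes of macrophages varied widely between libraries of 1 genotype. C1qa, 1 of 3 chains of C1q, stood at 1.02, 5.79, 1.58 and 0.0578 CPM in WT and at 0.708, 0.277, 1.32 and 1.29 CPM in Cxcr2-/- (adjusted p = 0.226). Fcna, the ficolin of macrophages, stood at 1.26, 6.03, 1.84 and 0.174 CPM in WT and at 0.581, 0.0553, 0.788 and 1.70 CPM in Cxcr2-/- (adjusted p = 0.141). WT replicate 2 was highest and WT replicate 4 lowest of the WT libraries for both, as for the macrophage markers Vcam1 (22.2 and 1.79 CPM) and Mrc1 (10.3 and 0.694 CPM). Csf1r, Adgre1, Cx3cr1 and Ccr2 of the same marker list did not follow that order. Csf1r, the most abundant of the list, stood at 499, 425, 403 and 442 CPM in WT replicates 1 to 4. Neither C1qa nor Fcna passed the test, and the groups overlapped for both.

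**Figure D4:**
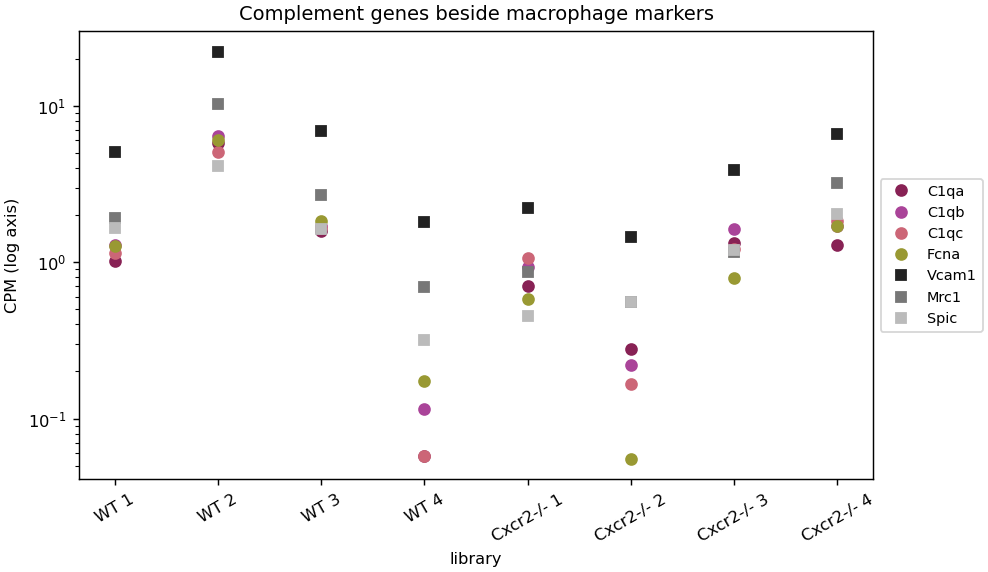
Level in CPM (vertical log axis) of complement genes of macrophages (circles) in each of the 8 libraries (horizontal axis). The macrophage markers Vcam1, Mrc1 and Spic (squares) are shown beside them, and other markers of that list, such as Csf1r, followed another order. C1q chains and Fcna were highest in WT replicate 2, where Vcam1 was 22.2 CPM.

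As like receptors outside complement, 6 chemoattractant receptors were read beside C5ar1 and C5ar2. Of these, 5 were tested, 3 were higher and 2 lower, where 23.7% of all genes were higher and 21.0% lower. Fpr2, a receptor of formylated and other peptides, rose from 288 ± 60.4 to 571 ± 38.3 CPM (log2 fold change 0.99, adjusted p = 0.000120), and Fpr1 rose from 218 to 299 CPM (0.45, adjusted p = 0.0116). Ltb4r1, the high-affinity leukotriene B4 receptor, rose from 162 ± 15.7 to 309 ± 32.8 CPM (log2 fold change 0.93, adjusted p = 2.17e-05). Ptafr, the receptor of platelet activating factor, fell from 451 ± 42.5 to 226 ± 25.7 CPM (log2 fold change -0.996, adjusted p = 1.75e-05). Ltb4r2 was scarce, at 1.86 and 1.09 CPM, and its call (adjusted p = 0.0400) was lost in 6 of the 17 alternative fits. C5ar1 was therefore the 1 abundant receptor among these that did not pass the test, and differences between its fold change and theirs were not tested.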

How the data were processed

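RNA was taken from sorted spleen neutrophils and made into rRNA-depleted directional libraries, sequenced as paired reads. After trimming, the authors mapped the reads with STAR to the mm10 build and deposited whole-number read counts per gene from HTSeq, 1 table per mouse, with no normalization. FastQC, HTSeq and mm10 are also named in the submitters' processing notes. Versions, strand setting and annotation release of the counting are not given in the sources used here. Of 55414 identifiers, 52081 matched GENCODE M21, which gave symbols, GRCm38 coordinates and exon lengths. The identifier versions differed from M21 for nearly all, so another release was used for counting, and 3333 identifiers with 1.43% of counts had no entry. Reads assigned to no feature were 31.4 to 41.5% of the total in WT and 26.7 to 31.9% in Cxcr2-/-, and were left out of library sizes.

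The deposited counts were fitted in edgeR 4.0.16 (R 4.3.3) with filterByExpr at its default minimum of 10 counts, TMM scaling and the quasi-likelihood test of Cxcr2-/- against WT by genotype alone, with Benjamini-Hochberg adjustment over 16778 genes. The code was tested on simulated data. CPM was computed from the gene counts and the library sizes after TMM scaling. DESeq2 1.42.0, other scalings, other filters, protein-coding genes alone, a replicate block and leaving out each library were tried as alternatives, and leaving out Cxcr2-/- replicates 3 and 4 was added after seeing the data. All 8 members are named, with those genes of the complement and chemoattractant receptor lists that passed the filter and the 3 genes most like each called member, searched among genes with a mean of at least 5 CPM. Of the complement genes called higher, 1 is not reported here. Members and lists were chosen with earlier results of these data known. The precision of low genes is limited by counts, as C3ar1 had 52 to 100 per WT library.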

Additional observations from a re-analysis of the deposited data

Results flagged for a closer look

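In 5 of the 72 groups of 4 libraries checked, 1 library lay further from the others than Dixon's 95% limit allows, and chance alone sets apart about 1 group in 20. None was a member gene. C4b stood at 1.66 CPM in WT replicate 3, against 0.221 to 0.347 CPM in the other WT libraries, and the difference between genotypes was larger without that library. Cd46 stood at 20.5 CPM in Cxcr2-/- replicate 4, against 15.4 to 15.9 CPM in the other Cxcr2-/- libraries, and still lay under every WT library. Cd93, a receptor of myeloid and endothelial cells, stood at 22.1 CPM in WT replicate 2, the library in which the C1q chains and the macrophage markers Vcam1 and Mrc1 were highest. Csf1r, of the same marker list, was highest in WT replicate 1 (499 CPM). The protease gene Masp2 (0.221 CPM) and the regulator gene Cd59b (0.0884 CPM) were low in WT replicate 1, where both rest on few counts.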

How the results depend on the processing

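C3, Cfp, C5ar2 and Cd55 kept direction and call in all 17 alternatives, with log2 fold changes of 0.71 to 1.03, 0.29 to 0.47, -1.28 to -1.09 and 0.51 to 0.78. The count of members higher was 3 throughout. The count of members lower, 3, was 1 to 3 when each library was left out and 1 without Cxcr2-/- replicates 3 and 4, where C3ar1 (adjusted p = 0.0949) and Cr1l (0.0981) were lost. C5ar1, which was not called, turned to 0.0098 without Cxcr2-/- replicate 2 and 0.0145 without WT replicate 1, within its error. Of the other complement genes, 3 to 5 were higher as each library was left out. Lower ones numbered 3 to 6 as each library was left out, 6 with no filter on low counts (with Clu, Fcna and Cd93 added) and 5 without Cxcr2-/- replicates 3 and 4. The labels do not say whether replicate numbers pair the mice. Same-numbered libraries deviated together with r of 0.150, -0.187, 0.245 and -0.308, and other-numbered ones with r from -0.270 to 0.303. With 4 libraries per group, these values cannot decide whether the mice were paired. With the replicate block, 2 members were lower, as C3ar1 lost its call (-0.74, adjusted p = 0.0761). Upper-quartile scaling shifted the median of all genes by -0.12, took the share of calls that were higher from 53.0% to 41.2%, and lost C1ra (adjusted p = 0.0510). No member changed direction or call with another scaling. Depth limits Cd59a and C3ar1 most.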
